A study of Mus musculus with 47 samples.

Results

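The C2C12 iMcam line carries a doxycycline (dox) inducible transgene of Mcam, and its response to dox after 48 h of differentiation is described here from RNA-seq. The members are the 6 libraries of this line at 48 h, 3 with dox and 3 with vehicle, chosen by their labels from 47 libraries in the series. C2C12 is an immortalised mouse myoblast line that leaves the cell cycle and fuses into multinucleated myotubes when serum is withdrawn. The Mcam transgene sits behind a tetracycline-response promoter on a PiggyBac vector and was selected with puromycin, with no clone isolation described. The vehicle libraries came from the same line with the same transgene. Dox or vehicle was added together with the switch to differentiation medium, so the dox and differentiation times are both 48 h. For comparison the report uses the C2C12 iCdh23 line, which carries the cadherin Cdh23 in the same kind of vector, and the C2C12 iMyoD1 line, which carries Halo-tagged MyoD1 beside the endogenous gene in a polyclonal population, each with 3 dox and 3 vehicle libraries at 48 h. No dox-treated line without a transgene was analysed here, so an effect of dox itself and an effect of the transgene cannot be told apart within the iMcam line.

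Mcam (melanoma cell adhesion molecule) is a transmembrane receptor of the immunoglobulin superfamily. It is best known from endothelial cells, pericytes and smooth muscle, where it takes part in cell-cell contacts, binds laminin chains such as Lama4 and is linked to the actin cortex through the ezrin, radixin and moesin proteins. Myoblasts express it too. Muscle differentiation runs from the myogenic regulators Myod1 and Myf5 through Myog to the fusion proteins and the sarcomere, and cells normally leave the cell cycle on the way. The question the comparison addresses is whether raising a single adhesion gene alters this programme.

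Library totals ran from 15066338 to 20230829 estimated counts in the vehicle group and from 17000938 to 19281774 in the dox group. Within-group Spearman correlations of log CPM (CPM being counts scaled to library size) were 0.980 to 0.995, against 0.907 to 0.957 between groups. The first principal component held 77.4% of the variance and separated the groups, and vehicle replicate 3 lay farthest out on it, at -73.0 against -38.4 and -45.6 for the other vehicle libraries. All 14 myoblast markers were detected, with a summed level of 3319 to 4753 CPM in the vehicle and 1422 to 1979 CPM in the dox libraries. As these are bulk samples, fewer cells of a kind and less RNA per cell cannot be told apart in any value below. The labels call the libraries biological replicates but do not say how the cultures were separated, so p-values measure the spread between these libraries.

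Mcam itself rose with dox. The gene (ENSMUSG00000032135, GRCm38 chr9:44134469-44142727, plus strand) stood at 19.8, 17.1 and 17.3 CPM in the vehicle libraries and at 69.0, 70.2 and 74.7 CPM in the dox libraries. All dox libraries lay above all vehicle libraries, and the fold change was 4.04 (log2 2.02, SE 0.0974, adjusted p = 0.000123, edgeR quasi-likelihood test). The counts do not separate transcripts of the transgene from those of the endogenous gene. Mcam also rose with dox in the lines that carry other transgenes. In the iCdh23 line it went from 7.58, 6.51 and 4.77 CPM with vehicle to 54.6, 47.1 and 45.7 CPM with dox (log2 2.97). In the iMyoD1 line it went from 13.2, 12.5 and 12.2 CPM to 25.0, 22.6 and 24.3 CPM (log2 0.91). On the log2 scale the rise in the iMcam line was smaller than in the iCdh23 line by a difference of -0.97 (SE 0.197, adjusted p = 0.0102, edgeR interaction test) and larger than in the iMyoD1 line by 1.10 (adjusted p = 0.00117, edgeR). The dox libraries of the iMcam line held the highest Mcam level of the 16 groups in the series, and its vehicle libraries, at a mean of 18.1 CPM, lay above the mean of every other vehicle group, the next being 12.6 CPM in the iMyoD1 line at 48 h. Some of these groups, the latter among them, were deposited apart from the iMcam libraries, and the differences of level were not tested.

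The estimated counts fell almost wholly on 2 annotated coding transcripts, Mcam-201, with a coding length of 1944 bases, and Mcam-202, with 1818 bases. The longer form took 68.0%, 91.7% and 78.9% of Mcam counts in the vehicle libraries and 76.7%, 73.9% and 73.2% in the dox libraries. These shares overlapped between the groups. In estimated counts Mcam-201 went from 226, 234 and 260 reads to 1081, 1018 and 1187, and Mcam-202 from 106, 14.6 and 68.4 to 329, 359 and 434. Both forms thus had higher counts in every dox library.

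Mcam is 1 of 5 adhesion genes that the study picked for a rise with dox in its MyoD1 libraries together with stronger MyoD1 binding, and the other four were measured as endogenous genes in the iMcam line. Cadm4, a nectin-like adhesion molecule (chr7:24482023-24504539), stood at 5.91, 5.78 and 5.72 CPM with vehicle and 51, 57.2 and 55.4 CPM with dox, a rise of 9.64-fold (log2 3.27, SE 0.0995, adjusted p = 2.47e-05, edgeR). Cdh23, an atypical cadherin of the hair cell tip link (chr10:60302748-60696490), stood at 5.61, 8.86 and 8.71 CPM and then at 44.0, 57.2 and 52.4 CPM, a rise of log2 2.76 (SE 0.191, adjusted p = 0.000151, edgeR). Both endogenous genes thus rose by more on the log2 scale than Mcam, and their groups were far apart. Itga3, a laminin-binding integrin subunit, was at 224, 192 and 101 CPM with vehicle and 336, 304 and 241 CPM with dox, which is log2 0.81 and under the fold threshold. Cdh15, the M-cadherin of myoblasts, fell from 233, 264 and 334 CPM to 75.3, 89.1 and 140 CPM (log2 -1.41, adjusted p = 0.00258, edgeR). Since the study chose these 5 genes on libraries of this series, their directions are not independent evidence about MyoD1.

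**Figure D1:**
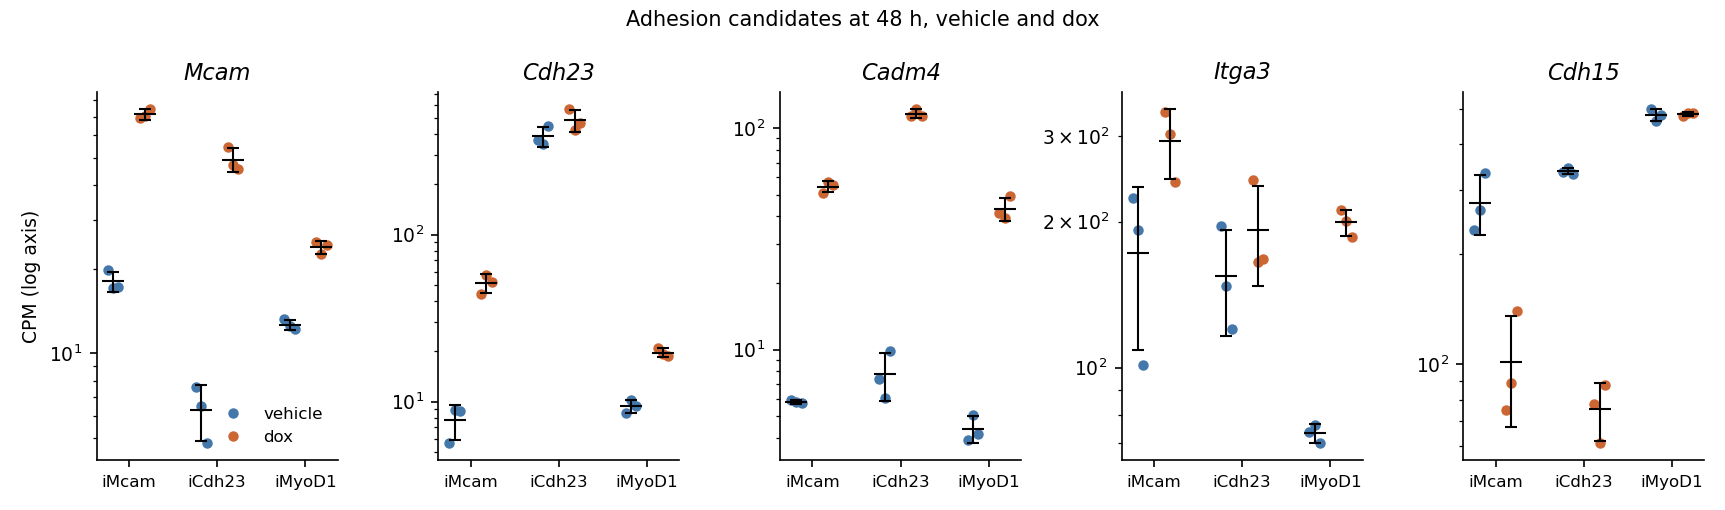
CPM on a log axis of the 5 adhesion candidates in the iMcam, iCdh23 and iMyoD1 lines at 48 h, each point 1 library, the horizontal mark the mean and the bar ± 1 SD of 3 libraries. Mcam and Cadm4 were higher with dox in all 3 lines, while Cdh15 was lower in the iMcam and iCdh23 lines and close to level in the iMyoD1 line.

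The bases before the start sites of 3 genes are shown because Myog, the gene that marks entry into terminal differentiation, fell while the endogenous Cadm4 and Cdh23 genes rose, and MyoD1 binds E-boxes (CANNTG). Sequences are from RefSeq on GRCm38, 5′ to 3′ on the gene's strand, and end at the base before the first annotated start, with every CANNTG, which reads alike on both strands, in capitals. The Myog stretch is chr1:134289754-134289988 (plus strand), that of Cadm4 is chr7:24481773-24482022 (plus strand) and that of Cdh23 is chr10:60696491-60696740 (minus strand).
Myog: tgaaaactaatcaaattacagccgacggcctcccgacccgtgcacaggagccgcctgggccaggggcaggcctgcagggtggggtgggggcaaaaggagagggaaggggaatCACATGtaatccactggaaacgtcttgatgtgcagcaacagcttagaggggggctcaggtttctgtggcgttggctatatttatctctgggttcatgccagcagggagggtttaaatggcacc
Cadm4: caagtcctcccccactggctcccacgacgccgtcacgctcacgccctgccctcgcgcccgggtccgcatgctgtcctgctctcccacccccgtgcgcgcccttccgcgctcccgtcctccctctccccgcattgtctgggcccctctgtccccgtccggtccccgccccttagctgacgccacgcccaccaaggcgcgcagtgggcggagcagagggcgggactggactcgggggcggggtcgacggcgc
Cdh23: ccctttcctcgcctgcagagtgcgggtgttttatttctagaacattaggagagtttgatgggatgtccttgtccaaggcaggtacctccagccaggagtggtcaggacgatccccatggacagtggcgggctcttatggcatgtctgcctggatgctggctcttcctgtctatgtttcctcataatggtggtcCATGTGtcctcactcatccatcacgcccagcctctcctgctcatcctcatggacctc
The Myog stretch is 235 bases long and stops 15 bases short of the RefSeq start, because it ends at the first annotated start. Those bases were not searched, and the Cadm4 and Cdh23 stretches are 250 bases long. Within the stretches shown, Myog and Cdh23 each held 1 CANNTG word and Cadm4 held 0. The words were CACATG at position -123 and CATGTG at position -57, counted back from the first annotated start. No stretch held CAGCTG. Among all 32851 promoters in the RefSeq table, 66.2% held a CANNTG in the 250 bases before the start and 13.0% held CAGCTG. A match is a run of letters and not a measured binding site.

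Across the genome, 13730 genes passed the filter on low counts, and a gene was called when its adjusted p was under 0.05 and its fold over 2. Of these, 960 were higher with dox (6.99% of genes tested) and 1353 were lower (9.85%). The 3 dox and 3 vehicle libraries did not overlap for 60.3% of genes tested, and 49.0% had an adjusted p under 0.05 at any fold. The median log2 fold change over all genes was 0.02. More of the large changes were falls, with 559 genes down and 218 up by over 4-fold.

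The genes that rose most were led by Susd2, a sushi-domain membrane protein, at 0.477, 1.07 and 0.472 CPM with vehicle and 33.4, 33.5 and 24.8 CPM with dox (log2 5.57, SE 0.288, adjusted p = 0.000123, edgeR). Atp1b2, a beta subunit of the sodium pump that also acts in glial adhesion, followed at 1.01, 1.21 and 0.630 CPM against 32.4, 39.8 and 27.7 CPM (log2 5.18). Epas1, a hypoxia-inducible transcription factor, rose by log2 4.84, from at most 0.716 CPM in any vehicle library to at least 8.34 CPM in any dox library. The next genes included the vesicular glutamate transporter Slc17a7 (log2 4.37), the huntingtin-associated protein Hap1 (4.01), the kinesin Kif1a (3.49) and the AMPA receptor auxiliary protein Cnih2 (3.33). Slc17a7 was at 0.477, 0.940 and 0.840 CPM against 14.8, 17.8 and 13.2 CPM. The remaining genes of the 12 were the Rac exchange factor Prex1 (3.71), the basement membrane protein Tinagl1 (3.68), complement C3 (3.64), the endothelial secreted protein Egfl7 (3.64) and the cholesterol exporter Abca1 (3.53). C3 varied between libraries, at 4.53, 1.14 and 0.787 CPM with vehicle and 36.1, 26.7 and 15.8 CPM with dox. Without vehicle replicate 1 the rises of C3 and Epas1 were log2 4.80 and 5.81.

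The largest falls opened with Heyl, a Notch-induced repressor, at 45.6, 46.7 and 93.3 CPM with vehicle and 1.67, 1.58 and 3.41 CPM with dox (log2 -4.75, SE 0.406, adjusted p = 0.000239, edgeR). Its relative Hey1 fell from 18.1, 13.4 and 24.8 CPM to 1.13, 1.17 and 2.21 CPM (log2 -3.59). Secreted matrix proteins followed, with Dmp1 at log2 -4.56, asporin (Aspn) at -3.87 and fibromodulin (Fmod) at -3.85. Dmp1, known from bone and dentin, was at 13.8, 15.3 and 18.1 CPM with vehicle and under 1 CPM in every dox library. The other falls were Nefl, a neurofilament chain (-4.50), the chemokine Cxcl14 (-4.31), the leukotriene enzyme Alox5 (-4.19), the retinoic acid enzyme Aldh1a3 (-3.81), the chemerin receptor Cmklr1 (-3.68), the matricellular protein Ccn2 (-3.62) and R3hdml (-3.61), which encodes a secreted protein. For Aldh1a3, Ccn2 and Fmod vehicle replicate 3 was far above the other vehicle libraries, for example 148 CPM of Ccn2 against 22.4 and 34.1 CPM, with dox libraries at 2.45 to 8.01 CPM. Without vehicle replicate 3 the log2 changes were -2.05 for Aldh1a3, -2.36 for Ccn2, -2.71 for Fmod, -2.80 for R3hdml, -3.45 for Cxcl14 and -3.59 for Alox5, all still called. Without dox replicate 3 they were -4.66 for Fmod, -4.65 for R3hdml and -5.14 for Nefl. Egfl7, Cnih2, Nefl, Aspn and Ccn2 overlap an annotated gene on the other strand, and the library kit as named does not mark strand, so reads over those bases cannot be assigned.

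**Figure D2:**
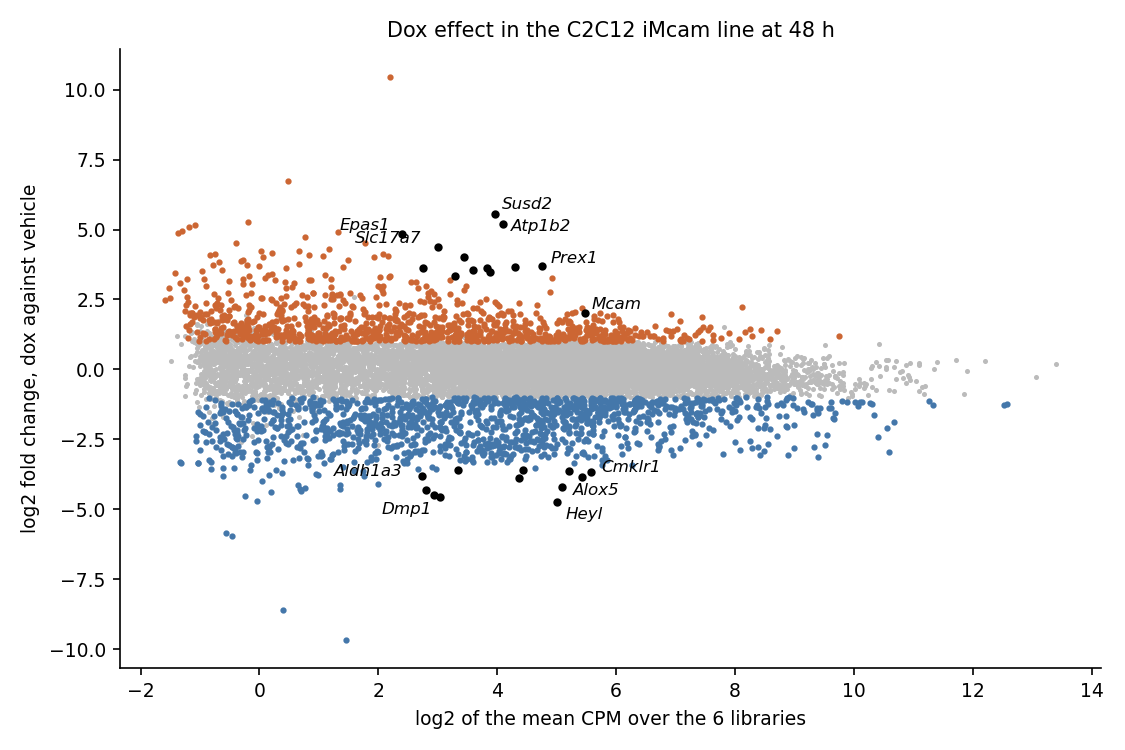
The log2 fold change of dox against vehicle in the iMcam line, plotted against the log2 of the mean CPM over the 6 libraries for the 13730 genes tested. Orange points are the 960 genes called higher, blue points the 1353 called lower, grey points the rest, and black points Mcam and the 24 genes named for the largest changes.

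Of 19 genes for Mcam ligands and signalling partners, 16 were tested. Besides Mcam, 0 of these were called higher and 4 lower, beside 6.99% and 9.85% over all genes. The list's median was log2 -0.16 beside 0.02 over all genes. Lama4, a laminin chain that binds Mcam, fell from 13.3, 15.9 and 12 CPM to 4.46, 5.91 and 5.11 CPM (log2 -1.37, adjusted p = 0.000783, edgeR). Pdgfrb, the PDGF receptor that pairs with Mcam in pericytes, fell from 548, 666 and 748 CPM to 199, 198 and 200 CPM (log2 -1.68). Moesin (Msn), an actin linker, fell by 1.43 on the log2 scale and the secreted protein Fstl1 by 1.16. For Fstl1 the fold fell under 2 without vehicle replicate 3, at log2 -0.91. Wnt5a, a Wnt ligand, stood at 11.2, 13.7 and 8.35 CPM with vehicle and 8.37, 9.27 and 11.9 CPM with dox, and the groups overlapped.

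Among 34 immunoglobulin-type adhesion molecules, 22 were tested, 5 were called higher, Mcam itself included, and 2 lower, with a median of log2 0.19. Over all genes 6.99% were called higher and 9.85% lower, so the count of lower genes was near that share. The junctional protein F11r rose from 8.83, 9.33 and 12.7 CPM to 30.2, 44.8 and 45.5 CPM (log2 2.00), and the laminin receptor Bcam (1.34) and Nectin2 (1.09) rose as well. The poliovirus receptor homologue Pvr (-1.53) and Ncam1 (-1.34), the neural adhesion molecule of regenerating muscle, fell. In the cadherin and catenin list, 2 of 13 tested genes were called higher and 4 lower. Celsr1, a planar polarity cadherin, rose by log2 2.16 beside Cdh23, and N-cadherin (Cdh2) fell from 261, 250 and 310 CPM to 137, 103 and 121 CPM (log2 -1.15). Cdh13 fell as well (log2 -1.17), as did plakoglobin (Jup), whose fold was just under 2 without vehicle replicate 3 (log2 -0.99) or dox replicate 3 (log2 -0.99). Of 19 integrin subunits tested, 7 were called lower and 1 higher, the latter near the share of 6.99% over all genes. Itga7, the laminin-binding subunit typical of muscle, fell from 609, 779 and 1077 CPM to 187, 174 and 237 CPM (log2 -2.00, adjusted p = 0.000498, edgeR). Itgb6 (-2.49), Itgb8 (-1.99) and the low-level Itga4 (-2.96) fell as well, and Itgal, under 1.3 CPM in every library, was the subunit called higher. Itga4 was at log2 -2.19 without vehicle replicate 3 and Itgb6 at -3.29 without dox replicate 3.

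Of 22 myogenic regulators tested, 0 were called higher and 7 lower, beside 6.99% and 9.85% over all genes. The list's median was log2 -0.58. The cofactor Eya1 was just under the fold threshold at log2 0.99 (adjusted p = 0.0482, edgeR), with 32.3, 33.8 and 12.2 CPM against 41.3, 51.9 and 58.4 CPM. Myog (chr1:134289989-134292548, plus strand) stood at 615, 751 and 1195 CPM with vehicle and 70.0, 68.8 and 161 CPM with dox (log2 -3.06, SE 0.400, adjusted p = 0.000972, edgeR). Myod1, the endogenous master regulator, fell from 191, 218 and 260 CPM to 65.1, 56.0 and 90.1 CPM (log2 -1.63, adjusted p = 0.000625, edgeR). The cofactor Vgll2 (-4.27) and the repressor Msc (-3.74) had the largest falls of the list, both from vehicle levels under 6 CPM. Mef2c was called lower (log2 -2.66), but not without vehicle replicate 3 (log2 -1.53, adjusted p = 0.0890, edgeR), dox replicate 1 (adjusted p = 0.0816, edgeR) or dox replicate 2 (adjusted p = 0.0998, edgeR), nor with all groups of its table in 1 fit (adjusted p = 0.149, edgeR), and it was at log2 -3.64 without dox replicate 3. The satellite cell factor Pax7 stood at 60.3, 68.2 and 50.2 CPM with vehicle and 64.6, 74.3 and 76.2 CPM with dox, and was not called. Myf5, which acts alongside Myod1, was at 26.0, 21.4 and 18.7 CPM with vehicle and 8.91, 13.2 and 13.6 CPM with dox, which is log2 -0.85 and not called.

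In the Id, Notch and Hes list, 9 of 24 tested genes were called lower and 0 higher, beside 9.85% and 6.99% over all genes. Besides Heyl and Hey1, these included Hes1, a Notch target, which fell from 48.1, 52.3 and 67.6 CPM to 6.90, 7.34 and 11.3 CPM (log2 -2.68), and Id2, a dominant-negative partner of E-proteins, at log2 -2.56. The ligands Jag1 (-1.24) and Dll1 (-2.27) were called too. Id3, at 101, 60.4 and 36.4 CPM with vehicle and 119, 70.2 and 69.4 CPM with dox, and the receptor Notch3, at log2 -0.27, were not called.

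Among 30 tested genes of the fusion machinery, 7 were called lower and 0 higher, beside 9.85% and 6.99% over all genes. The muscle fusogens myomaker and myomixer were among them. Myomaker (Mymk) was at 315, 414 and 591 CPM with vehicle and 47.1, 48.2 and 115 CPM with dox (log2 -2.61, SE 0.394, adjusted p = 0.00167, edgeR). Myomixer (Mymx) was at 54.2, 68.2 and 117 CPM and then at 7.69, 7.90 and 23.4 CPM (log2 -2.58, adjusted p = 0.00394, edgeR). In both, replicate 3 had the highest value within each group, and the groups did not overlap. Tmem182, a claudin-like inhibitor of fusion, also fell (log2 -2.99), as did the low-level Nfatc2 (-4.33) and Ano5 (-3.10). Nfatc2 was at log2 -3.24 without vehicle replicate 3, and without dox replicate 3 Ano5 was at -4.31 and Tmem182 at -3.94. The promyogenic receptor Cdon was at log2 -0.39 and the actin-binding Flnc at -0.51, and neither was called. The list's median was log2 -0.21.

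Contractile genes fell broadly. Of 55 sarcomere genes tested, 46 were called lower and 0 higher, with a median of log2 -2.50 beside 0.02 over all genes, and the summed level of the list went from between 10010 and 22530 CPM to between 2758 and 5311 CPM. Skeletal actin (Acta1) fell from 1728, 2344 and 4141 CPM to 214, 210 and 612 CPM (log2 -2.95, adjusted p = 0.00284, edgeR). Embryonic myosin (Myh3) fell from 641, 1122 and 2029 CPM to 82.2, 119 and 367 CPM (log2 -2.70, adjusted p = 0.00985, edgeR). Csrp3 (-3.30), Xirp1 (-3.09) and slow troponin I (Tnni1, -3.03) were among the list's largest falls, and the giant proteins titin (Ttn, -2.40) and nebulin (Neb, -2.38) fell by less. Desmin (Des), which myoblasts also express, fell from 795, 924 and 1324 CPM to 287, 275 and 448 CPM (log2 -1.55). Without dox replicate 3, the dox library with the highest Acta1 and Myh3 levels, the median of the sarcomere genes was log2 -3.25, and single genes lay lower too, with Acta1 at -3.64, Myh3 at -3.60, Csrp3 at -4.01, Xirp1 at -3.84 and Tnni1 at -3.88.

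Of 12 myosin heavy chains tested, 7 were called lower and 1, the non-muscle Myh14, higher, from at most 0.682 CPM to at least 2.03 CPM. A single higher call among 12 is near the share of 6.99% called higher over all genes. Besides Myh3, the largest falls were those of the low-level Myh4 (log2 -3.11), Myh13 (-2.41) and Myh7b (-1.99). Myh4 was not called with all groups of its table in 1 fit (log2 -3.13, adjusted p = 0.195, edgeR). It was called when the myotube-enriched libraries numbered 2 were left out of that fit. Myh13 was not called without dox replicate 1 (adjusted p = 0.0616, edgeR) or dox replicate 2 (adjusted p = 0.0583, edgeR). Without vehicle replicate 3 Myh13 was at log2 -1.57 and Myh14 at 4.23, and without dox replicate 3 Myh4 was at -3.77. Perinatal Myh8 was not called (log2 -0.96, adjusted p = 0.283, edgeR), with 3.28, 6.85 and 16.6 CPM against 1.52, 3.47 and 8.43 CPM. With the replicate number as a block its log2 change was -0.97 (adjusted p = 0.00211, edgeR), still under the fold threshold. The non-muscle Myh9 was at 2218, 2315 and 2117 CPM with vehicle and 1605, 1617 and 1380 CPM with dox, a difference of log2 -0.49 under the fold threshold. Of 26 genes for excitation-contraction coupling, 16 were called lower and 0 higher. The calcium pump Atp2a1 fell from 136, 253 and 340 CPM to 24.6, 29.5 and 70.5 CPM (log2 -2.51), and the release channel Ryr1 (-2.26), the calcium channel Cacna1s (-2.49), the calcium-binding Casq2 (-2.57) and the sodium channel Scn4a (-2.68) fell with it. Caveolin 3 (Cav3, -2.71), also on the fusion list, was not called without dox replicate 2 (adjusted p = 0.0518, edgeR). Casq1 (-2.55) was not called without dox replicate 1 (adjusted p = 0.0531, edgeR) or dox replicate 2 (adjusted p = 0.0627, edgeR), nor with all groups of its table in 1 fit (adjusted p = 0.0534, edgeR). Without vehicle replicate 3 Cav3 was at log2 -2.06 and Casq1 at -1.63, and without dox replicate 3 Cav3 was at -3.87, Casq1 at -3.28 and Casq2 at -3.48.

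At the neuromuscular junction, 10 of 17 tested genes were called lower and 1 higher, the latter near the share of 6.99% over all genes. The fetal acetylcholine receptor subunit Chrng fell from 125, 168 and 262 CPM to 15.3, 17.9 and 40.3 CPM (log2 -2.88), and Chrnd (-2.74), Chrna1 (-2.14), the adaptor Dok7 (-2.61) and the receptor kinase Musk (-1.35) fell too. Agrin (Agrn), the ligand that clusters these receptors, moved the other way, from 96.7, 113 and 87.7 CPM to 434, 513 and 428 CPM (log2 2.25, SE 0.134, adjusted p = 0.000123, edgeR). Among 22 muscle metabolic enzymes tested, 8 were called lower and 3 higher, beside 9.85% and 6.99% over all genes. Creatine kinase (Ckm) fell from 84.4, 129 and 222 CPM to 12.3, 14.4 and 40.6 CPM (log2 -2.65) and muscle enolase (Eno3) fell by 1.77 on the log2 scale, while the glycerol-phosphate enzyme Gpd1 (1.76) and the insulin-responsive glucose transporter Slc2a4 (1.48) rose from vehicle levels of at most 3.31 and 1.55 CPM. The largest falls of that list were Art3 (-4.24), from at most 5.41 CPM, myoglobin (Mb, -3.02) and the cytochrome oxidase subunit Cox6a2 (-2.73), which overlaps Itgad on the other strand. Mb was not called without dox replicate 1 (adjusted p = 0.0511, edgeR) or dox replicate 2 (adjusted p = 0.0532, edgeR). Without vehicle replicate 3 Mb was at log2 -1.93 and Art3 at -3.65, and without dox replicate 3 Mb was at -3.90, Art3 at -4.89 and Ckm at -3.39. The kinase subunit Phkg1 was called higher (log2 1.22), but not with DESeq2 (adjusted p = 0.0576) or without vehicle replicate 2 or 3 or dox replicate 1 or 2 (adjusted p = 0.0526 to 0.0771, edgeR). Slc2a4 was not called with all groups of its table in 1 fit (adjusted p = 0.103, edgeR).

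**Figure D3:**
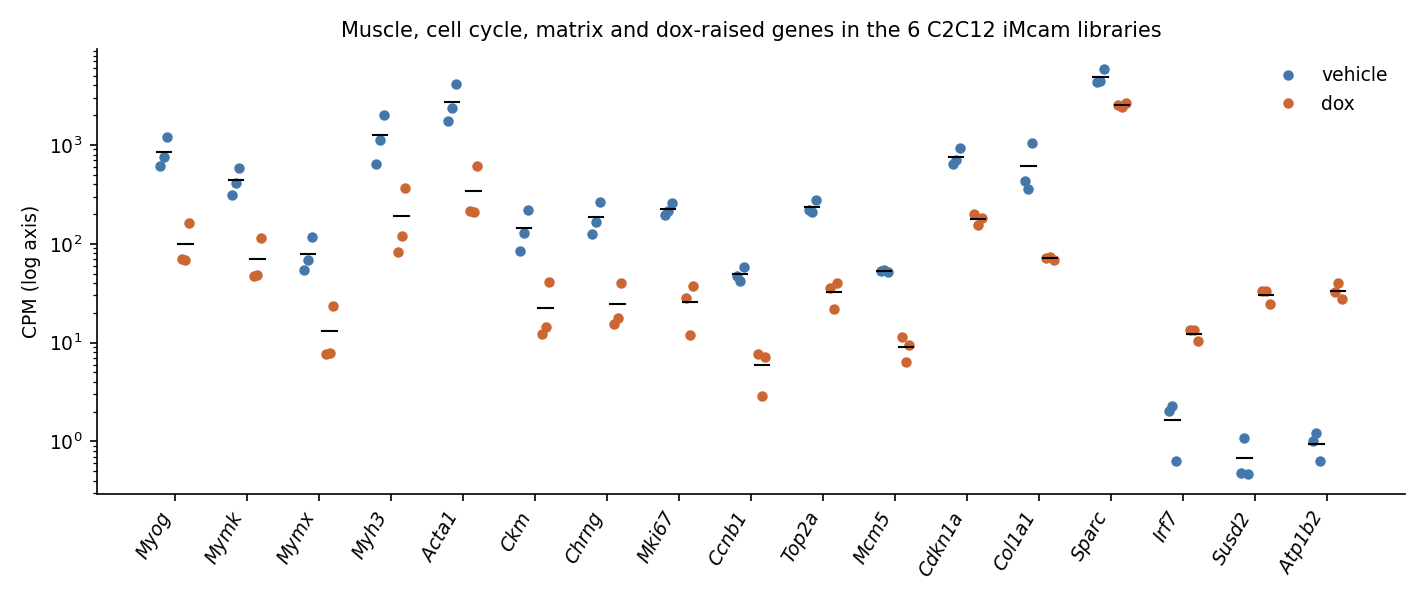
CPM on a log axis of 17 genes in the 6 iMcam libraries, with a line at each group's mean. The muscle genes from Myog to Chrng and the cell cycle genes from Mki67 to Mcm5 were lower in all 3 dox libraries than in any vehicle library, as were Cdkn1a, Col1a1 and Sparc, and Irf7, Susd2 and Atp1b2 were higher.

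Cell cycle genes fell together with the muscle genes. All 32 mitosis and cytokinesis genes were called lower, with log2 changes from -3.30 to -1.63 and a median of -2.98 beside 0.02 over all genes. The proliferation antigen Mki67 stood at 198, 213 and 258 CPM with vehicle and 28.5, 12 and 37.7 CPM with dox (log2 -3.06, SE 0.369, adjusted p = 0.000715, edgeR). Cyclin B1 (Ccnb1) fell from 47.3, 41.9 and 57.9 CPM to 7.64, 2.85 and 7.14 CPM (log2 -3.02). The inhibitor-of-apoptosis protein Birc5, which serves in the chromosomal passenger complex, had the largest fall (-3.30), followed by the kinase Ttk (-3.24), the kinetochore protein Ndc80 (-3.23) and Hmmr (-3.20). The summed level of the list was 1717 to 2268 CPM with vehicle and 186 to 345 CPM with dox.

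Of 36 DNA replication genes, 31 were called lower and 0 higher, with a median of log2 -1.56. The transcription factor E2f2 fell by 3.41 on the log2 scale, the ribonucleotide reductase subunit Rrm2 by 2.74 and the licensing factor Cdc6 by 2.54. The helicase subunit Mcm5 fell from 52.9, 53.9 and 52.4 CPM to 11.5, 6.37 and 9.44 CPM (log2 -2.51), and its partner Mcm2 fell by 1.23. The sliding clamp Pcna went from 117, 106 and 127 CPM to 45.8, 39.6 and 41.5 CPM (log2 -1.42). A list around cell cycle exit holds CDK inhibitors, retinoblastoma family genes and growth arrest genes, and also the D-type cyclins, which drive entry into the cycle. Of its 18 tested genes, 6 were called lower and 0 higher, beside 9.85% and 6.99% over all genes. The CDK inhibitor Cdkn1a, a target of MyoD1 in differentiating myoblasts, fell from 635, 705 and 932 CPM to 199, 154 and 183 CPM (log2 -2.05, SE 0.167, adjusted p = 0.000206, edgeR). Cdkn1c fell from 191, 272 and 305 CPM to 33.4, 48.8 and 79.4 CPM (log2 -2.21), Gadd45g by 2.34 on the log2 scale, Gadd45b by 1.63 and cyclin D1 (Ccnd1) by 1.23. The CDK inhibitor Cdkn1b was higher in every dox library, at 107, 95.0 and 74.0 CPM with vehicle and 157, 171 and 156 CPM with dox (log2 0.85, adjusted p = 0.00238, edgeR), under the fold threshold. The retinoblastoma gene Rb1 was at log2 -0.92 and cyclin D3 (Ccnd3) at log2 -0.48, and neither passed the fold threshold.

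**Figure D4:**
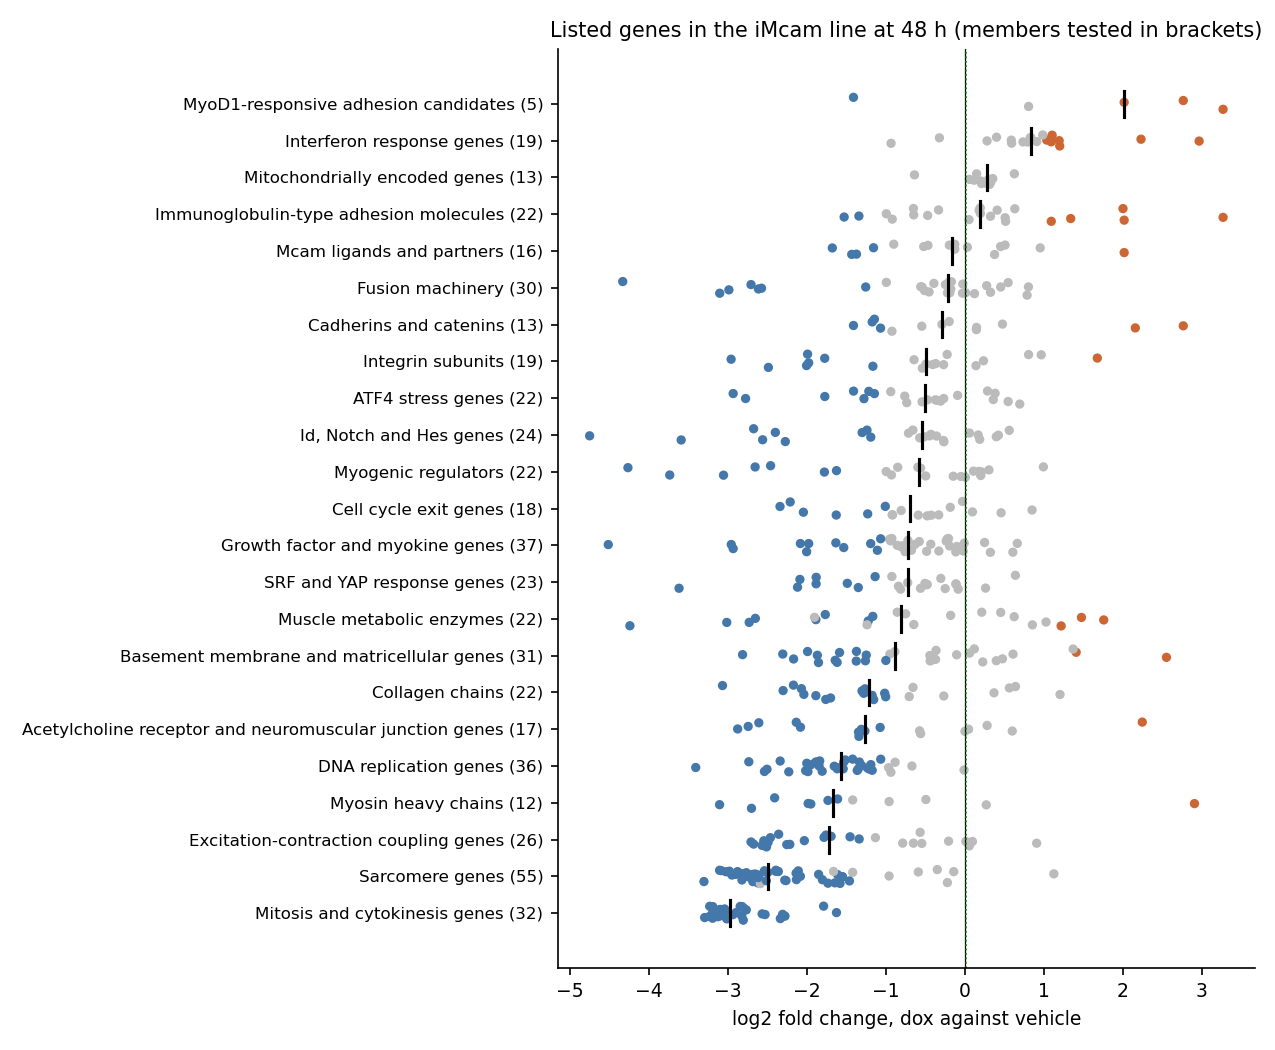
The log2 fold change of each tested member of 23 gene lists in the iMcam line, orange where called higher, blue where called lower and grey where not called, with a black mark at the list's median and a dotted line at the median of all genes. Mitosis and sarcomere genes had the lowest medians, -2.98 and -2.50, and interferon response genes had a median of 0.83. The median of the 5 adhesion candidates is the value of Mcam, the induced gene.

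Extracellular matrix genes fell as well. Of 22 collagen chains tested, 15 were called lower and 0 higher, with a median of log2 -1.22, and the summed level went from between 19610 and 27370 CPM to between 9325 and 10520 CPM. Col3a1, a fibrillar chain, fell from 7183, 8513 and 9588 CPM to 3004, 3440 and 3806 CPM (log2 -1.27, adjusted p = 0.000655, edgeR). Col1a1 fell by 3.07 on the log2 scale, from 436, 358 and 1053 CPM to 71.3, 73.7 and 68.7 CPM, and Col1a2 by 1.89. Col8a1 (-2.30), Col5a3 (-2.17) and the low-level Col11a1 (-2.07) fell too. Col6a1 overlapped between groups, at 1908, 2390 and 2125 CPM against 1509, 1778 and 1913 CPM. Among 31 basement membrane and matricellular genes, 14 were called lower and 2 higher, the latter near the share of 6.99% over all genes. Osteopontin (Spp1) fell from 994, 1174 and 1174 CPM to 232, 192 and 235 CPM (log2 -2.31), fibronectin (Fn1) by 1.25 and tenascin C (Tnc) by 2.82 on the log2 scale. Elastin (Eln, -2.17) was called lower, but not without vehicle replicate 3 (log2 -1.15, adjusted p = 0.0634, edgeR), dox replicate 1 (adjusted p = 0.0918, edgeR) or dox replicate 2 (adjusted p = 0.0959, edgeR). The laminin chains Lamb2 (1.41) and Lama3 (2.55) rose, Lamb2 from 225, 202 and 151 CPM to 501, 545 and 448 CPM. Decorin (Dcn), at 36.5, 45.8 and 32.8 CPM with vehicle and 36.6, 42.2 and 68.9 CPM with dox, was not called. Without vehicle replicate 3 Col1a1 was at log2 -2.45 and Tnc at -1.92, and without vehicle replicate 1 Lama3 was at 3.26.

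Of 23 genes that respond to the serum response factor SRF or to YAP, 8 were called lower and 0 higher, with a median of log2 -0.72. Over all genes 9.85% were called lower and 6.99% higher. Smooth muscle actin (Acta2) fell from 2053, 2227 and 3033 CPM to 519, 424 and 732 CPM (log2 -2.09, adjusted p = 0.000524, edgeR), and Tagln (-1.88), Actg2 (-2.12) and Ankrd1 (-1.88) fell with it. Among 37 growth factor and myokine genes, 11 were called lower and 0 higher. The cytokine Il6 was called lower, from 1.19, 0.672 and 3.04 CPM to at most 0.138 CPM, with no fold given because its dox counts were at most 3. The cytokine Lif (-2.96), the hormone Fgf21 (-2.93) and the activin antagonist follistatin (Fst, -2.00) fell, whereas Igf1 was at 133, 158 and 151 CPM with vehicle and 88.8, 97.9 and 182 CPM with dox and was not called. Igf2 was called lower at log2 -2.08, but not without dox replicate 1 (adjusted p = 0.0597, edgeR) or dox replicate 2 (adjusted p = 0.0738, edgeR), and it was at -3.06 without dox replicate 3. Lif was at log2 -2.12 without vehicle replicate 3.

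Interferon response genes rose in part. Of 19 tested, 7 were called higher and 0 lower, with a median of log2 0.83. Over all genes 6.99% were called higher and 9.85% lower. The transcription factor Irf7 rose from 2.03, 2.28 and 0.630 CPM to 13.4, 13.3 and 10.3 CPM (log2 2.97, SE 0.386, adjusted p = 0.000951, edgeR). The immunoproteasome subunit Psmb9 (2.23), the tetherin Bst2 (1.20) and the peptide transporter Tap1 (1.19) rose too, but Tap1 was under the fold threshold without vehicle replicate 3 (log2 0.96), and Tap1 and Psmb9 are neighbours that overlap on opposite strands. Beta-2 microglobulin (B2m) was at 301, 263 and 252 CPM with vehicle and 458, 437 and 429 CPM with dox, a difference of log2 0.73 below the threshold. The classical interferon-induced gene Ifit1, at 2.86, 1.55 and 0.735 CPM against 3.13, 2.96 and 2.81 CPM, was not called, and 8 members of the list, Mx1 and Rsad2 among them, were too low to test. Of 22 ATF4 stress genes, 7 were called lower and 0 higher. The serine synthesis enzyme Psat1 fell from 196, 186 and 205 CPM to 74.1, 70.0 and 70.9 CPM (log2 -1.41), and Atf4 itself by 1.22 on the log2 scale. The cystine transporter Slc7a11 (-2.78) and the folate enzyme Mthfd2 (-1.77) were called lower as well, Mthfd2 not with all groups of its table in 1 fit (adjusted p = 0.0752, edgeR), and Slc7a11 was at log2 -3.52 without dox replicate 1. In contrast, Ddit3 (log2 0.38), Trib3 (-0.35) and Atf5 (-0.09) were not called. None of the 13 mitochondrially encoded genes passed both thresholds with edgeR or DESeq2. With edgeR 1 was lower at an adjusted p under 0.05 but missed the fold threshold. Mitochondrial genes took 3.02% to 3.23% of counts in the vehicle libraries and 3.43% to 4.87% in the dox libraries, but with TMM scaling the 13 genes summed to 29600 to 31070 CPM and 28670 to 41660 CPM, which overlap.

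Markers of differentiated muscle fell, and most markers of other cell types fell or were too low to test. Of 14 myotube markers, 13 were called lower, with Mylpf (log2 -2.90, or -3.78 without dox replicate 3) and Tnni2 (-2.82, or -3.63 without dox replicate 3 and -2.20 without vehicle replicate 3) after Myog and Acta1, and their summed level went from between 5107 and 12090 CPM to between 718 and 2125 CPM. Of the 13 tested myoblast markers, 7 were called lower, among them the engulfment receptor Megf10 (log2 -2.32) and the growth factor receptor Met (-1.04), and 0 higher. The 10 endothelial markers summed to 3.94 to 6.35 CPM with vehicle and 13.8 to 15.2 CPM with dox. Only 2 passed the filter: Egfl7, which alone made up 11.7 to 13.3 CPM of the dox sum, was higher, and Flt1 was lower (log2 -1.29), though not without dox replicate 2 (adjusted p = 0.0627, edgeR). The 10 pericyte and smooth muscle markers, a compartment known for Mcam, had 3 of 6 tested genes called lower and 0 higher, and their sum went from between 3030 and 4335 CPM to between 944 and 1192 CPM. Fibroblast markers had 4 of 8 tested genes called lower, osteoblast markers 2 of 4 and neural and glial markers 2 of 3, each with 0 higher. Over all genes 9.85% were called lower. The neural genes called lower were Tubb3 (log2 -2.24) and Gap43 (-2.12). Dermatopontin (Dpt, -2.70) led the fibroblast falls after Col1a1, and Pi16 (-1.19) was under the fold threshold without dox replicate 1 (log2 -0.96) and overlaps an annotated gene on the other strand. Of the 3 tested markers in each of the adipocyte, chondrocyte and haematopoietic lists, 0 were called in either direction with edgeR. In each list 1 had an unadjusted p under 0.05, and for the adipocyte list the adjusted p was under 0.05 too. DESeq2 called 1 haematopoietic marker. Adipoq, Plin1, Cidec, Col9a1, Tyrobp, Sox10, Snap25, Rbfox3, Bglap, Ibsp, Dpp4 and Tcf21 had 0 counts in all 6 libraries.

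The iCdh23 line, made and treated in the same way, shared most of the calls of the iMcam line. It shares no libraries with the iMcam line. In that line 14227 genes were tested, of which 13.0% were called higher and 17.0% lower. Among the 13570 genes tested in both, 955 were called higher in the iMcam line and 1567 in the iCdh23 line, with 834 in common, which is 87.3% of the first list and 53.2% of the second. Of the genes called lower, 1319 and 2312, the lines had 1261 in common, or 95.6% and 54.5%. A single gene was called higher in the iMcam line and lower in the other, and 0 the other way round (edgeR). Spearman's rho of the log2 fold changes across genes was 0.89, a description over genes that are not independent.

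The lines differed mainly in the size of the effects. The interaction test called 944 genes (6.49%), 796 with a higher log2 dox effect in the iMcam line (5.47% of 14552 tested) and 148 with a lower one (1.02%). For 718 of the 787 of the first kind that were tested in both lines, the effects had the same sign and the iMcam effect was the smaller in size, as for 96 of the 128 of the second kind. With all groups of the table in 1 fit the interaction called 333 and 33 genes, and 574 and 74 when the myotube-enriched libraries numbered 2 were left out of that fit. Of 59 sarcomere genes tested, 39 were called in the interaction, each with the higher log2 effect in the iMcam line, and so were 24 of 32 mitosis genes. Myog fell by 3.06 on the log2 scale in the iMcam line and by 7.26 in the iCdh23 line, a difference of 4.18 (adjusted p = 0.00606, edgeR interaction). For Acta1 the changes were -2.95 and -6.93 (difference 3.96, adjusted p = 0.00867, edgeR, and 3.27 without dox replicate 3), for Mymk -2.61 and -6.29 (difference 3.65, adjusted p = 0.00544, edgeR), and for Mki67 -3.06 and -5.70 (difference 2.62, adjusted p = 0.0134, edgeR). With all groups of the table in 1 fit Mki67 was not called (difference 2.60, adjusted p = 0.127, edgeR). It was called when the myotube-enriched libraries numbered 2 were left out of that fit. Decorin differed in kind, at log2 0.40 and not called in the iMcam line but -4.47 in the iCdh23 line (difference 4.85, adjusted p = 0.000125, edgeR). For Agrn the changes were 2.25 in both lines, with a difference of -0.02 (-0.11 to 0.095 when each iMcam library was left out). The test of Cadm4, at 3.27 and 3.90, gave a difference of -0.65 (adjusted p = 0.0571, edgeR). Cdh23, the transgene of the iCdh23 line, was already at 369.6, 347.7 and 450.6 CPM there with vehicle, and its change was log2 0.32 (adjusted p = 0.102, edgeR).

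**Figure D5:**
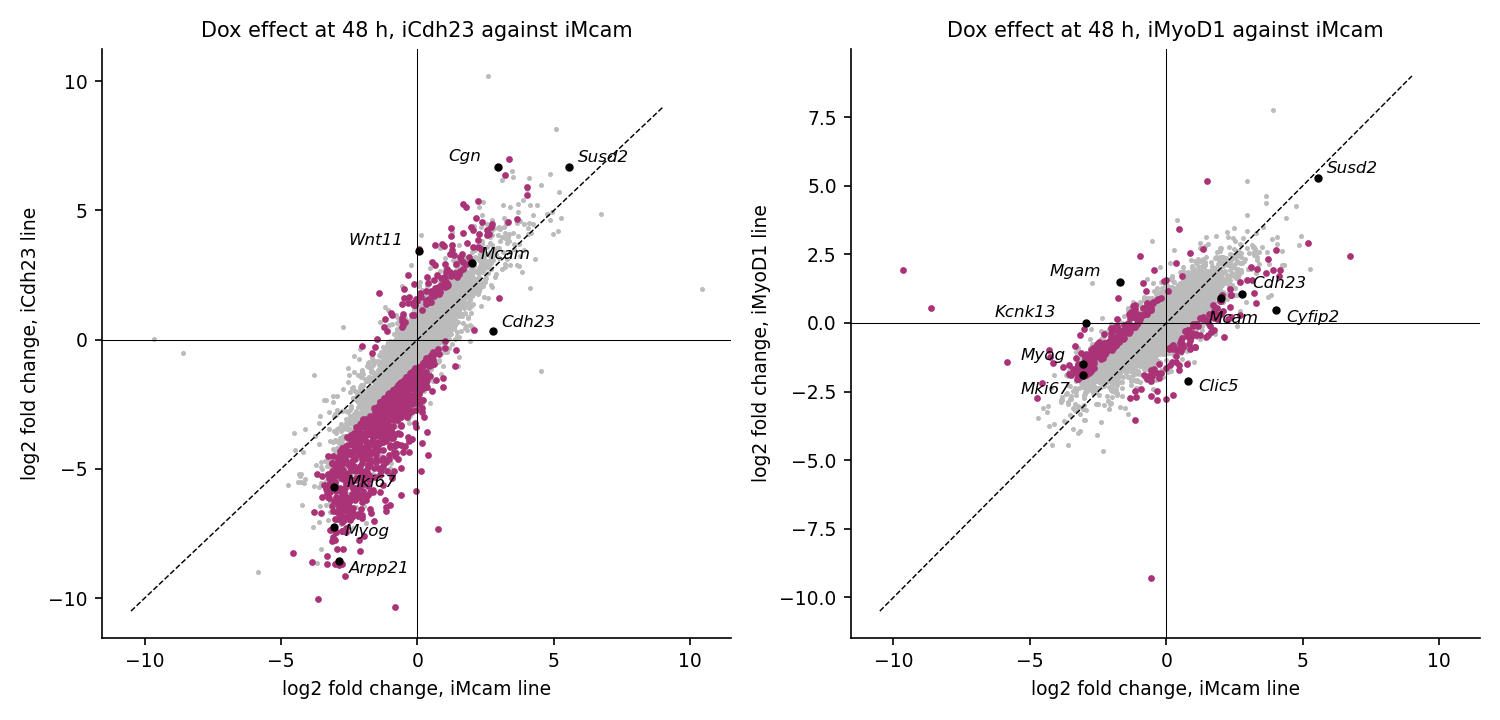
The log2 fold change of dox against vehicle at 48 h for each gene in the iMcam line (horizontal axis) against the iCdh23 line (left) and the iMyoD1 line (right), with genes called in the interaction test in purple and a dashed line of equal effects. The cloud is steeper than the line of equal effects on the left, where Myog is at -3.06 and -7.26, and flatter on the right, where Myog is at -3.06 and -1.50.

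In the iMyoD1 line 13871 genes were tested, with 5.93% called higher and 8.46% lower. Of the 13273 genes tested in both lines, 840 were called higher in the iMcam line and 766 in the iMyoD1 line, and the 490 in common were 58.3% and 64.0% of the lists. Among the genes called lower, 1317 and 1032, the 812 in common were 61.7% and 78.7%. Spearman's rho across genes was 0.79. The interaction test called 353 genes (2.44%), 125 with a higher effect in the iMcam line (0.863% of 14488) and 228 with a lower one (1.57%), and with the replicate number as a block these were 157 and 376. Leaving out dox replicate 2 gave 60 and 127, leaving out vehicle replicate 3 gave 207 and 368, and leaving out dox replicate 3 gave 117 and 375. Of the 221 genes of the second kind tested in both lines, 170 changed with the same sign in both and by more in the iMcam line. Of the 117 of the first kind, 52 had opposite signs in the lines, 42 changed by more in the iMcam line and 23 by less.

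Myog fell by 1.50 on the log2 scale in the iMyoD1 line, a difference of -1.56 from the iMcam line (adjusted p = 0.0443, edgeR interaction). It was not called without vehicle replicate 2, dox replicate 1 or dox replicate 2 (adjusted p = 0.0592, 0.0751 and 0.0994, edgeR). For Mymk the change was -0.86 there (difference -1.76, adjusted p = 0.0265, edgeR, and 0.0636 without dox replicate 2), and for Cdh15 -0.01 (difference -1.41, adjusted p = 0.00900, edgeR). Myod1 in the iMyoD1 line went from 391, 389 and 382 CPM with vehicle to 295, 323 and 300 CPM with dox. Whether these counts include transcripts of the transgene cannot be told, so its difference is not read here. The mitosis genes were called lower in all 32 cases in each of the 3 lines, with medians of log2 -1.80 in the iMyoD1, -2.98 in the iMcam and -4.83 in the iCdh23 line, and 15 of 32 differed between iMcam and iMyoD1. The sarcomere medians were -1.24, -2.50 and -6.02 in the same order, and 3 of 61 tested sarcomere genes differed between iMcam and iMyoD1. The ATF4 stress genes went against this order. Their medians were -1.27 in the iMyoD1, -0.51 in the iMcam and -2.18 in the iCdh23 line, and 7 of 22 differed between iMcam and iMyoD1, each with the higher effect in the iMcam line. Trib3, for example, was at -0.35 in the iMcam line and -2.48 in the iMyoD1 line (difference 2.10, adjusted p = 0.00636, edgeR).

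The iMyoD1 line was also passed through a cell strainer at 120 h to give myotube-enriched and myoblast-enriched fractions, and the vehicle fractions give gene lists from libraries the iMcam comparison does not use. Among those libraries, the one labelled myotube-enriched vehicle replicate 2 had dox-like levels of Susd2 (9.65 CPM against 0.631 and 1.19 in the other two), Cadm4 (25.6 against 2.84 and 5.28) and Mcam (16.2 against 3.47 and 3.08). The dox library numbered 2 of that fraction stood apart the other way, with 1.11 CPM of Susd2 against 10.8 and 9.80, 2.78 CPM of Cadm4 against 25.9 and 29.3, and 1.26 CPM of Mcam against 12.4 and 15.2. For Cdh23 and Itga3 the dox library was also low, at 14.5 and 61.6 CPM against 25.9 to 28.3 and 168 to 191 CPM. The vehicle library was not high for these, at 15.4 CPM of Cdh23 against 14.8 and 18.4, and 93.4 CPM of Itga3 against 98.5 and 129.5 in the other vehicle libraries. The dox library thus went against its label for these 5 genes and the vehicle library for 3 of them. For Cdh15 the dox library, at 180 CPM, lay within the vehicle range of 151 to 306 CPM. The other dox libraries were at 352 and 238 CPM. For Myod1 the dox library stood at 363 CPM, with the other dox libraries at 273 and 211 CPM and vehicle at 225.5 to 359 CPM. With all libraries, 80 genes were higher in the myotube-enriched fraction (0.570% of 14023 tested) and 2 in the other (0.0143%), together 0.585%. Of the 80, 67 were tested in the iMcam comparison, where 38 were called lower and 3 higher, with a median of log2 -1.42 against 0.02 over all genes. Without the library labelled vehicle replicate 2, 44 genes were higher in the myotube-enriched fraction, 32 of them among the 80, and of the 35 tested in the iMcam comparison 21 were called lower and 2 higher, with a median of log2 -1.90. Too few genes were higher in the myoblast-enriched fraction, 2 with all libraries and 3 without that one, to describe as a list.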

How the data were processed

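RNA was sequenced from 47 libraries of C2C12 lines in 16 groups, of which the 6 iMcam libraries at 48 h are described. Per the labels and methods, polyA RNA was made into libraries with a kit not named as directional, and reads were quantified with salmon through nf-core/rnaseq against mm10; the annotation release is not given in the sources used here. The deposited tables hold the authors' salmon estimated counts per transcript (109617 transcripts, 45706 gene identifiers). Between 30.97% and 34.36% of the values are not whole. GENCODE vM21, used here for symbols and GRCm38 coordinates, matched 98.72% of the transcripts.

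Counts were summed per gene and rounded. CPM used TMM factors over all libraries, and no value is corrected for gene length, so levels are not compared between genes. Dox was compared with vehicle by edgeR 4.0.16 quasi-likelihood tests (R 4.3.3, TMM, filterByExpr, Benjamini-Hochberg over all genes tested), and the SE is the log2 fold change divided by the root of F. Interactions were tested in the 4 groups concerned. The iMyoD1 libraries were deposited in another table, so their effects were taken within that table's samples and only differences of effects were tested. Scripts were tested on simulated data. Alternatives were DESeq2 1.42.0, RLE factors, no low-count filter, all groups of the table in 1 fit, the replicate block, each iMcam library left out and no fold threshold. The library totals limit the precision of genes with few counts.

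Same-numbered dox and vehicle libraries deviated together (residual correlations 0.36, 0.23 and 0.42, against -0.43 to 0.13 for other numbers). The labels do not say that the numbers pair the samples. The main fits were unpaired, and the replicate block is the alternative that pairs them. The members, gene lists and tests were chosen with earlier results of these data known. Named are Mcam, preset anchor genes of the lists, the 12 called genes that changed most each way (mean CPM 5 or more, libraries of the groups not overlapping), the 4 largest called changes in each direction of a list, and the 6 largest interaction differences in each direction with at least 5 CPM in 1 of the groups. Predicted genes were counted, not named; Nectin2, Jag1, Dll1, Eya1, Cdkn1b, Atf4, Met, Mx1, Rsad2 and the genes at 0 were named after their values were seen. Not every gene that the rule picks is reported here.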

Additional observations from a re-analysis of the deposited data

Results flagged for a closer look

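The genes below had dox effects that differed between lines by an edgeR interaction test (adjusted p under 0.05), and are given with the log2 effect in the iMcam line minus that in the other. Mcam differed from the iCdh23 line by -0.97 and from the iMyoD1 line by 1.10. Against the iCdh23 line the effect was higher in the iMcam line for Ces1g (9.33), Myoc (8.03), Macc1 (6.18), Nmrk2 (5.79), Arpp21 (5.64) and Igfn1 (5.58). The dox libraries of the iCdh23 line were at or near 0 for these, so the sizes depend on the prior count of the fit. Arpp21, a cyclic AMP-regulated phosphoprotein, was at 24.9, 35.7 and 51.2 CPM with vehicle and 3.23, 3.06 and 8.43 CPM with dox in the iMcam line, and at 22.8, 29.6 and 35.6 CPM with vehicle and under 0.1 CPM with dox in the iCdh23 line. Without dox replicate 3 the difference of Arpp21 was 5.01 and that of Macc1 5.52, and Macc1 was then not called (adjusted p = 0.0509, edgeR). The difference of Ces1g was 10.3 without vehicle replicate 1 and 8.73 without dox replicate 1.

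The effect was lower than in the iCdh23 line for Nfasc (-5.56), Cgn (-3.73), Sept3 (-3.58), Glis1 (-3.46) and Wnt11 (-3.37). Wnt11, a Wnt ligand, was at 0.716, 0.739 and 2.47 CPM with vehicle and 0.881, 1.48 and 1.70 CPM with dox in the iMcam line, and went from at most 0.694 CPM to at least 6.42 CPM in the iCdh23 line. Its difference was -2.49 without vehicle replicate 3. Nfasc, a neural adhesion molecule, rests on a vehicle library with few reads. Without vehicle replicate 1 its difference was -2.05 (adjusted p = 0.916, edgeR) and without vehicle replicate 3 it was -6.18, and it was not called with the replicate block (adjusted p = 0.0700, edgeR) or without dox replicate 1, 2 or 3 (adjusted p = 0.0577 to 0.0645, edgeR). With all groups of the table in 1 fit Nfasc (adjusted p = 0.0777, edgeR), Cgn (0.225), Sept3 (0.0779) and Igfn1 (0.251) were not called. In that fit the differences were -3.76 for Cgn, -3.60 for Sept3 and 5.57 for Igfn1. These 3 genes were called when the myotube-enriched libraries numbered 2 were left out of it, and Nfasc was not (adjusted p = 0.0542, edgeR).

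Against the iMyoD1 line the effect was higher for Cyfip2 (3.53), Clic5 (2.91), Inpp5j (2.57), Slc12a5 (2.43), Atp1b2 (2.26) and Atp2a3 (2.24), and lower for Crocc2 (-3.69), Cxcl14 (-3.32), Mgam (-3.20) and Kcnk13 (-2.94). Cyfip2, an actin regulator of the WAVE complex, went from 0.358, 0.336 and 0.630 CPM to 6.66, 7.90 and 6.86 CPM in the iMcam line and from 0.653, 0.803 and 0.759 CPM to 1.37, 0.887 and 0.836 CPM in the iMyoD1 line. Mgam, a maltase, moved in opposite directions, from 10.8, 8.60 and 9.66 CPM to 2.45, 2.45 and 3.82 CPM and from 2.26, 2.14 and 2.41 CPM to 6.61, 6.94 and 5.90 CPM. Clic5 and Atp2a3 had higher vehicle levels in the iMyoD1 line, 4.46 to 7.77 and 14.4 to 17.6 CPM against 0.739 to 1.21 and 2.80 to 6.09 CPM. The libraries of these lines were deposited separately, and the differences of level were not tested. The difference of Cxcl14 was -2.46 without vehicle replicate 3, and that of Kcnk13 was -4.04 without dox replicate 3. Slc12a5 was not called without dox replicate 2 (adjusted p = 0.0533, edgeR), and Crocc2 not without vehicle replicate 1, vehicle replicate 2 or dox replicate 1 (adjusted p = 0.0560 to 0.0653, edgeR).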

How the results depend on the processing

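Of 160 gene results with alternatives, 133 stayed on their side of the thresholds in every alternative, and 1 changed direction, the uncalled line difference of Agrn (-0.11 to 0.095 without each library); Mcam was called in the iMcam line in each. The genes called in the iMcam line numbered 893 and 1381 with DESeq2 and 1009 and 1396 with the replicate block, and without any fold threshold 3320 and 3403. The replicate block, which pairs same-numbered libraries, ended the call of Nfasc and of no other of the 160 gene results. It moved no count of calls by over 1.5 times but the lower calls against the iMyoD1 line (376), which numbered 394 without the low-count filter. Without a fold threshold those interactions gave 341 higher and 588 lower, and 441 lower against the iCdh23 line. All groups in 1 fit gave 333 higher and 33 lower against the iCdh23 line. Leaving out both myotube-enriched libraries numbered 2, an alternative added after seeing the data, gave 74 lower. The cause was not tested. Among genes whose call all groups in 1 fit ended, Mef2c and Nfasc stayed uncalled without those libraries. Myh4, Casq1, Slc2a4, Mthfd2, Mki67, Cgn, Sept3 and Igfn1 were called again. Leaving out each iMcam library gave 60 to 207 higher and 127 to 375 lower calls against the iMyoD1 line.

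List medians moved by more than the spread between replicates in 31 of 409 alternatives. Leaving out each library gave medians of -0.308 to -0.061 for Mcam ligands, -0.63 to -0.52 for Id, Notch and Hes genes, -2.41 to -1.25 for myosin heavy chains, -3.25 to -1.99 for sarcomere genes, -0.76 to -0.62 for cell cycle exit, -0.98 to -0.59 for basement membrane, -0.83 to -0.44 for growth factors, -0.66 to -0.37 for ATF4 genes, -3.43 to -2.20 for myotube, -1.20 to -0.88 for pericyte and -0.41 to 0.23 for chondrocyte markers, and -1.92 to -1.24 for the myotube-enriched fraction (-1.90 without its doubted library). No low-count filter gave 0.31 for immunoglobulin-type molecules, -0.66 for basement membrane, -0.33 for endothelial, -0.24 for pericyte and -0.83 for osteoblast markers. All groups in 1 fit gave -0.48, -0.29, -1.19 and -0.44 for endothelial, pericyte, osteoblast and haematopoietic markers, and -0.46, -0.39, -1.16 and -0.41 without the doubted libraries. The replicate block gave -1.89 for osteoblast markers. The causes were not tested.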
